A study of Homo sapiens with 9 samples.

Results

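The response to phorbol 12-myristate 13-acetate (PMA) was compared between K562 and HEL cells by the interaction, that is the log2 change with PMA in K562 minus the log2 change with PMA in HEL. A gene was counted where it responded in 1 line only or in opposite directions in the 2 lines, and 1476 of 8862 genes (16.7%) met this rule. A line was called responding at a change of 2-fold or more (a log2 change of 1) and not responding at under 1.5-fold. For the genes of 1 line only, the interaction also had to reach 2-fold. Only genes with a log2 value of at least 5 in some array of each line were used. The 1476 genes were chosen by these changes, so the changes themselves are given as a description.

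The series holds 9 expression arrays of 2 human leukaemia lines, K562, from a chronic myeloid leukaemia in blast crisis, and HEL, an erythroleukaemia line. The contrast used 5 of them, K562 with 5 nM PMA for 48 h (1 array), untreated K562 (2 arrays, called untreated 1 and untreated 2), HEL with 5 nM PMA for 48 h (1 array) and untreated HEL (1 array). The remaining 4 arrays were K562 with hemin or DAC and HEL with DAC. The labels do not say that the untreated K562 arrays came from separate cultures. So p-values from these 5 arrays measure no more than how far the untreated K562 pair differs, possibly for technical reasons. Each line stands for itself alone.

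PMA mimics diacylglycerol, the lipid messenger that activates the conventional and other diacylglycerol-sensitive forms of protein kinase C. Lasting activation of this kinase signals through RAS and the MAP kinases ERK1 and ERK2 and through NF-kB, and drives AP-1, a dimer of FOS and JUN proteins. Both lines carry features of the erythroid and the megakaryocytic lineage, and phorbol esters are known to push such cells towards megakaryocytes, a step at which cells leave the mitotic cycle and may go on copying their DNA without dividing.

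Over all probe sets the arrays were close in scale, with array medians of 6.71 to 6.78 and 66.1 to 67.3% of probe sets at 5 or more. The untreated K562 arrays differed by 2-fold or more in 648 of the genes kept (7.31%), with a median absolute difference of 0.302 on the log2 scale. Of 5 erythroid markers on the array, 4 reached 5 in each array with PMA and all 5 in each untreated array. HBE1, embryonic epsilon globin, lay at 14.41 in K562 with PMA and at 14.27 and 12.64 in untreated K562, and at 14.10 in HEL with PMA and 14.41 in untreated HEL. The others except GATA1 were lower with PMA in both lines: HBZ, zeta globin, was at 10.91 in K562 with PMA, against 14.71 and 12.05 untreated, and at 4.38 in HEL with PMA, against 9.96 untreated, and KLF1, an erythroid factor, at 7.0 in K562 with PMA, against 10.96 and 9.58 untreated, and at 9.84 in HEL with PMA, against 11.11 untreated. ALAS2, the first enzyme of heme synthesis in red cells, was at 4.21 in K562 with PMA, against 6.63 and 5.26 untreated, and at 8.14 in HEL with PMA, against 9.66 untreated. Of 6 megakaryocyte markers on the array, 4 reached 5 in K562 with PMA against 2 in each untreated array, and 6 in HEL with PMA against 5 untreated. PF4, platelet factor 4, and GP9, a subunit of the platelet von Willebrand receptor, stood at the lowest value of the table, 2.25, in all 3 K562 arrays, and PF4 was at 13.34 in HEL with PMA and 6.50 in untreated HEL, so neither gene entered the contrast. Of 2 lymphocyte markers on the array, CD3D was at 12.51 in K562 with PMA and at 10.42 and 11.01 in untreated K562, and below 5 in HEL. The other, CD79A, was below 5 in every array of the contrast. The epithelial marker EPCAM was at 9.20 in K562 with PMA and at 11.74 and 11.93 in untreated K562, also below 5 in HEL. The part of such differences in the results was not tested.

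More genes passed 2-fold in K562 than in HEL. In K562, 1382 genes were at least 2-fold higher with PMA (15.6%) and 1625 lower (18.3%), and in HEL 556 were higher (6.27%) and 436 lower (4.92%). The 1476 genes comprised 551 that were higher in K562 only (6.22%), 735 lower in K562 only (8.29%), 79 higher in HEL only (0.891%) and 64 lower in HEL only (0.722%), with 27 higher in K562 and lower in HEL (0.305%) and 20 lower in K562 and higher in HEL (0.226%). A further 360 genes (4.06%) were at least 2-fold higher in both lines and 231 (2.61%) lower in both. The shares of all genes in these classes are the background for the gene lists, and no list was tested against it. A gene under 5 in the untreated arrays of a line could enter only if PMA raised it to 5. In every list the filter thus favours genes that were higher with PMA.

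**Figure D1:**
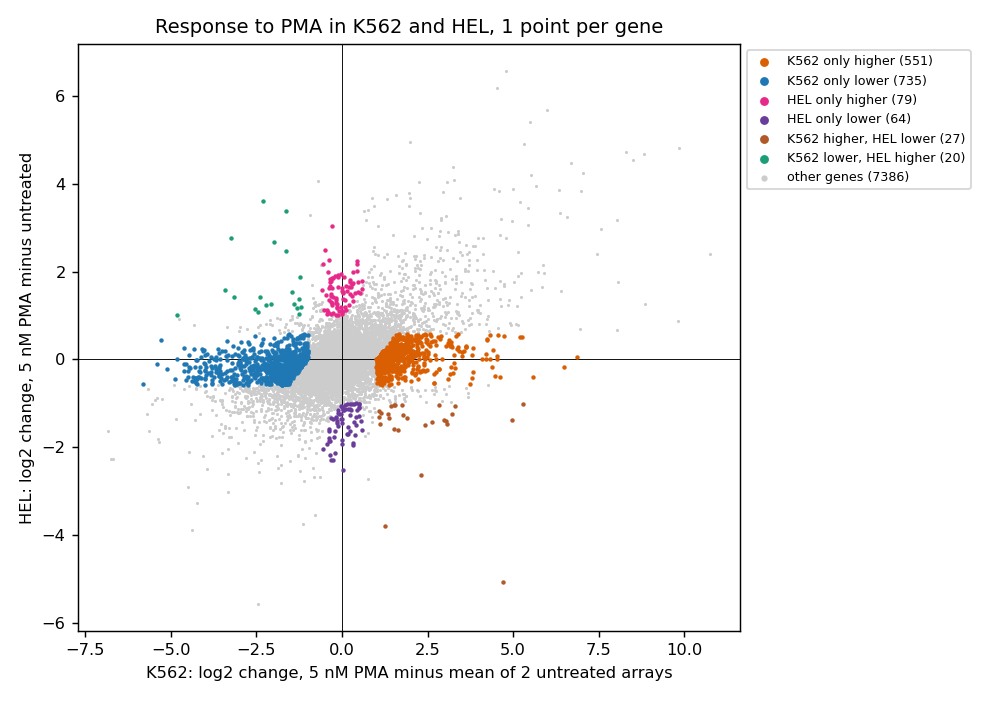
Log2 change with 5 nM PMA in K562 (x axis, against the mean of 2 untreated arrays) and in HEL (y axis, against 1 untreated array), 1 point per gene for 8862 genes. Colours mark the 6 classes, of which the 735 genes lower in K562 only and the 551 higher in K562 only lie along the horizontal line and the 79 and 64 genes of HEL only along the vertical line.

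No interaction passed the test. In limma, with the 5 arrays in 4 groups, 0 of 8862 genes (0%) had an adjusted p under 0.05. The smallest adjusted p was 0.292, and 1277 genes (14.4%) had an unadjusted p under 0.05. The fit had 1 residual degree of freedom, from the untreated K562 pair, and took the lone PMA and HEL arrays to vary like that pair, so the HEL changes have no replicate check of their own. As a second description of stability, 1190 of the 1476 genes (80.6%) kept an interaction of at least 2-fold with the same sign against each untreated K562 array alone. The lone HEL arrays allow no such count.

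Membership at the edge turned on small differences. TYK2, a Janus kinase, was counted with a K562 change of 1.004, and B3GALNT2, a glycosyltransferase, was not counted with -0.999. On the HEL side H2BC5, a histone H2B, was counted with 1.02 and another histone H2B, H2BC9, was not with 0.992.

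Of the 27 gene lists described, that of mitosis had the highest share of counted genes. Of 31 measured mitosis genes, 29 were lower in K562 only, against 8.29% of all genes, and the median change was -3.83 in K562 (14.2-fold lower) and -0.26 in HEL (1.2-fold lower). Over all genes the medians were -0.10 and -0.08. The 2 others were also lower in K562 but lay outside the 1.5-fold limit in HEL. These were TOP2A, the topoisomerase that untangles chromosomes, with -2.99 in K562 and 0.73 in HEL, and KIF20A, a kinesin of cell division, with -5.67 and -0.68. All 31 genes were lower in K562 with PMA than in either untreated array, and all 31 kept a 2-fold interaction against each of those arrays. The untreated pair differed by 0.18 at the median and 0.71 at most over these genes. None of the 31 passed in limma after adjustment. In arrays of whole cultures, fewer cells in a phase and less RNA per cell cannot be told apart.

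The proliferation antigen MKI67 was at 5.60 in K562 with PMA and 10.07 in both untreated K562 arrays, and at 10.18 in HEL with PMA and 10.07 in untreated HEL. PMA-treated K562 stood alone and the other 4 arrays lay together. PLK1, the kinase that drives entry into and passage through mitosis, was at 5.31 in K562 with PMA, against 9.59 and 9.04 untreated, and at 9.25 in HEL with PMA, against 9.70 untreated. The kinetochore genes behaved alike: NDC80 was at 7.20 in K562 with PMA, against 11.44 and 11.88 untreated, and at 11.24 in HEL with PMA, against 11.41 untreated. SPC25, another subunit of the NDC80 complex, had the most negative interaction named among the genes lower in K562 only, -5.73, and did not pass in limma. It was at 6.66 in K562 with PMA, against 11.75 and 12.16 untreated, and at 12.05 in HEL with PMA, against 11.61 untreated. The smallest change of the list was that of AURKA, the spindle pole kinase, with 10.22 in K562 with PMA, against 11.43 and 11.73 untreated.

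The machinery of DNA replication followed at a smaller size. Of 33 measured genes 23 were lower in K562 only, against 8.29% of all genes, and 2 in both lines, with medians of -2.91 in K562 (7.52-fold lower) and -0.33 in HEL (1.26-fold lower). All 33 were lower in K562 with PMA than in either untreated array, and 32 kept a 2-fold interaction against each of them. CDT1, which licenses origins, was at 7.26 in K562 with PMA, against 10.98 and 11.33 untreated, and at 10.72 in HEL with PMA, against 10.75 untreated. PRIM1, a primase subunit, was at 7.31 in K562 with PMA, against 11.18 and 11.48 untreated, and at 11.25 in HEL with PMA, against 11.32 untreated. The helicase genes of the MCM family shared part of the response, since MCM3 was lower in both lines (-2.91 in K562 and -1.42 in HEL) and MCM2, MCM5 and MCM7 were lower in HEL by amounts between the 1.5-fold and 2-fold limits. The exception was RFC1, the large clamp-loader subunit, with -0.61 in K562 and -0.77 in HEL.

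**Figure D2:**
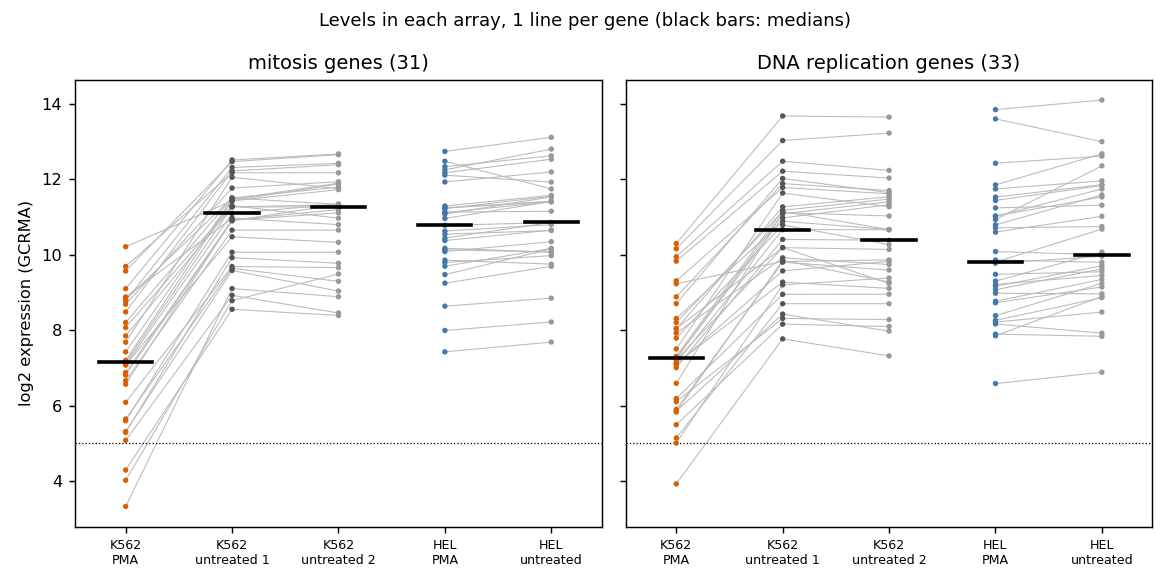
Log2 expression of 31 mitosis genes (left) and 33 DNA replication genes (right) in each of the 5 arrays, 1 line per gene, with black bars at the medians and a dotted line at 5. In both panels the median of K562 with PMA lies below those of the other 4 arrays, while that of HEL with PMA lies next to untreated HEL.

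Regulators of the G1 phase were not divided in the same way. CDKN1A, the cyclin-dependent kinase inhibitor p21, was at 11.87 in K562 with PMA, against 7.16 and 7.55 untreated. In HEL it was at 10.10 with PMA, against 3.92 untreated. It was thus higher in both lines, with changes as measured of 4.52 in K562 and 6.18 in HEL. The untreated HEL value lies under 5, so the size of the HEL change is uncertain. MYC was lower in both lines (-2.43 and -1.44) and CCND1, cyclin D1, higher in both (3.07 and 4.05). CCNE2, cyclin E2, which partners CDK2 at the start of S phase, went opposite ways, with 6.85 in K562 with PMA, against 9.11 and 8.71 untreated, and 9.45 in HEL with PMA, against 8.20 untreated. Its relative CCNE1 had -1.47 in K562 and 0.98 in HEL, just under the limit. Of 20 measured G1 genes, 5 were counted, against 16.7% of all genes. Besides CCNE2 these were CDK4 and RBL1, a pocket protein, lower in K562 only, CDK6, higher in K562 only, and MXD1, an antagonist of MYC, higher in HEL only (0.43 in K562 and 2.24 in HEL).

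The promoters of these genes are shown because mitosis and replication genes are known to carry different short elements, the cell cycle genes homology region (CHR) in mitosis genes and the E2F site in replication genes. The sequences are the 150 bases before the start in RefSeq, GRCh38.p14, 5′ to 3′ on the gene's strand, with the element in capitals. PLK1 (chr16:23678739-23678888, plus strand), CCNB2 (chr15:59104996-59105145, plus strand), KIF11 (chr10:92592980-92593129, plus strand) and PRC1 (chr15:90994536-90994685, minus strand) carry the CHR, TTTGAA on either strand. POLA2 (chr11:65261812-65261961, plus strand) and POLE (chr12:132687343-132687492, minus strand), from the replication list, carry an E2F match, TTTCGCGC or TTTGGCGC on either strand.
PLK1: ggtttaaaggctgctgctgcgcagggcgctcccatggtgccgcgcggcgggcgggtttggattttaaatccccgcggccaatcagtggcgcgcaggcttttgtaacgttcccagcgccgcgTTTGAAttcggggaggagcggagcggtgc
CCNB2: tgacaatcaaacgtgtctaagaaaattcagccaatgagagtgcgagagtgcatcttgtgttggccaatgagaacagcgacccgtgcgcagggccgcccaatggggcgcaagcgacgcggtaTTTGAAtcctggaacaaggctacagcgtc
KIF11: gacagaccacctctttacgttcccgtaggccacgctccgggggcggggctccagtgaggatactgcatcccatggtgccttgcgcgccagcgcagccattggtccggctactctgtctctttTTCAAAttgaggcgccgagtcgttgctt
PRC1: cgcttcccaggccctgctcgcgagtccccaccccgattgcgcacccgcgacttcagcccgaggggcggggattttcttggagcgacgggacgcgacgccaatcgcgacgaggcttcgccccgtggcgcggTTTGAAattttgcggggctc
POLA2: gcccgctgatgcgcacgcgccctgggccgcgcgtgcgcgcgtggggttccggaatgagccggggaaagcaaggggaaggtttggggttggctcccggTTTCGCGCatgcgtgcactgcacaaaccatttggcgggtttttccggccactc
POLE: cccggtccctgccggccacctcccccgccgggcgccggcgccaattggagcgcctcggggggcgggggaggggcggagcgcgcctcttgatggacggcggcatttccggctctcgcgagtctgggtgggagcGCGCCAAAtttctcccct

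In the 4 mitosis promoters shown, all of which hold a match, it begins 20 to 29 bases before the start. Positions in the other mitosis promoters were not tabulated. Over windows of 250 bases before to 50 after the start, the CHR letters were in 17 of 25 mitosis promoters of genes lower in K562 only (68.0%), in 1 of 21 replication promoters of that class (4.76%), in 140 of 609 promoters of the whole class (23.0%) and in 740 of 7449 promoters of genes kept (9.93%). Outside both lists the class had the letters in 122 of 563 promoters (21.7%), and genes higher in K562 only in 40 of 465 (8.60%). Genes higher in K562 and lower in HEL had them in 5 of 25 (20.0%). Genes lower in K562 and higher in HEL had them in 1 of 14 (7.14%). The E2F letters were in 6 of 21 replication promoters (28.6%), in 2 of 25 mitosis promoters (8.0%) and in 174 of 7449 promoters of genes kept (2.34%). Over all 27305 promoters of the table the shares were 15.4% for the CHR and 1.18% for E2F. These 2 elements were chosen after the values of both lists had been seen, and a match is a run of letters, not a bound site.

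Genes of amino acid supply were lower in K562, and for part of them in HEL as well. The list held targets of ATF4, the factor that raises amino acid synthesis and uptake under stress. Of 20 measured genes 8 were lower in K562 only, against 8.29% of all genes, and 8 in both lines, against 2.61%, with medians of -3.29 in K562 (9.78-fold lower) and -0.60 in HEL (1.52-fold lower). PCK2, a mitochondrial carboxykinase, was at 6.71 in K562 with PMA, against 10.89 and 10.55 untreated, and at 8.82 in HEL with PMA, against 9.06 untreated. TRIB3, a pseudokinase induced by ATF4, was at 9.04 in K562 with PMA, against 12.78 and 12.66 untreated, and at 8.67 in HEL with PMA, against 8.68 untreated, so PMA-treated K562 came close to the level HEL held with or without PMA. The amino acid carriers SLC7A1 (-2.90 in K562 and 0.00 in HEL) and SLC7A5 (-2.57 and -0.14) were lower in K562 only. The serine synthesis genes PHGDH (-6.68 in K562 and -2.27 in HEL) and PSAT1 (-6.83 and -1.64) were lower in both lines.

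Among the genes higher in K562 only, the named 8 were led by NTS, the precursor of neurotensin, with 10.30 in K562 with PMA, against 4.59 and 2.25 untreated, and 9.53 in HEL with PMA, against 9.48 untreated. TNS3, a focal adhesion protein, was at 8.75 in K562 with PMA and at the lowest value, 2.25, in both untreated K562 arrays, and at 9.20 in HEL with PMA, against 9.37 untreated. In both genes K562 with PMA came near a level that HEL already had. With values under 5 set to 5, the interactions were 5.25 for NTS and 3.92 for TNS3, against 6.83 and 6.67 as measured. CXCR4, the receptor of the chemokine CXCL12, was at 7.02 in K562 with PMA, against 2.48 and 2.33 untreated, and at 6.01 in HEL with PMA, against 6.42 untreated. TIE1, an endothelial and haematopoietic receptor kinase, was at 7.77 in K562 with PMA, against 2.65 and 2.37 untreated. It stayed below HEL, which had 11.92 with PMA and 11.41 untreated. With values under 5 set to 5, the interactions of CXCR4 and TIE1 were 2.43 and 2.26, against 5.02 and 4.75 as measured. S100A16, a calcium-binding protein, differed in that HEL did not hold it at a high level: it was at 10.14 in K562 with PMA, against 5.30 and 4.56 untreated, and at 5.82 in HEL with PMA, against 5.30 untreated. C11orf96 (interaction 5.98), SMIM24 (4.84) and EHD1 (4.57), a protein of endosome recycling, completed the 8.

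Over the whole class such a starting difference was found in a minority. Of the 551 genes higher in K562 only, 314 (57.0%) began within 2-fold between the lines and 67 (12.2%) began at least 2-fold higher in K562. Untreated K562 lay at least 2-fold below untreated HEL in the other 170 (30.9%), against 13.3% of all genes kept. For the 79 genes higher in HEL only, untreated K562 lay at least 2-fold above untreated HEL in 39 (49.4%), against 16.6% of all. The 735 genes lower in K562 only mostly began alike, with 539 within 2-fold untreated (73.3%, against 70.1% of all), and 224 were within 2-fold with PMA (30.5%, against 60.4% of all). The untreated arrays enter both the starting level and the change, so these shares are a description.

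Of 26 listed genes of protein kinase C and phorbol receptors 13 were measured. None of the 13 was counted, against 16.7% of all genes, and their median changes were 0.52 in K562 and 0.45 in HEL. The filter leaves out a gene under 5 in all arrays of 1 line, so such a difference could not be seen here. PRKCD, the delta isoform, was higher in both lines, with 7.53 in K562 with PMA, against 5.55 and 5.26 untreated, and 8.99 in HEL with PMA, against 7.83 untreated. The interaction as measured still exceeded 4-fold for UNC13B and RASGRP2, which were not counted because their changes in K562 lay between the limits. UNC13B, a vesicle priming protein with a phorbol-binding domain, had 0.76 in K562 and -1.68 in HEL (interaction 2.44). Its HEL value with PMA, 4.17, lies under 5, and with such values set to 5 the interaction was 1.61. RASGRP2, an exchange factor for RAP1, had -0.88 and 1.69 (interaction -2.57), but an interaction of -1.77 against untreated 1 alone.

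The fast transcription factors below the MAP kinases were partly counted. FOS was at 8.61 in K562 with PMA, against 5.05 and 3.78 untreated, and at 7.52 in HEL with PMA, against 7.51 untreated. JUN was at 9.26 in K562 with PMA, against 7.70 and 8.34 untreated, and at 7.24 in HEL with PMA, against 7.77 untreated. Both AP-1 subunits were thus higher in K562 only, while ATF3, a stress-induced relative, was lower in K562 only (-1.90 and -0.14). Of the 10 AP-1 genes 3 were counted, against 16.7% of all genes, and 3 were higher in both lines. EGR1, a zinc finger factor of the immediate early response, was high in all 5 arrays and higher in K562 only. It was at 14.29 in K562 with PMA, against 12.15 and 11.29 untreated, and at 14.50 in HEL with PMA, against 13.93 untreated. The HEL change of EGR1, 0.57, lay just under the 1.5-fold limit of 0.585. Its 3 probe sets gave interactions from 0.85 to 2.01, the lowest under 2-fold. Its relative KLF6 went opposite ways, with 11.82 in K562 with PMA, against 9.51 and 10.30 untreated, and 4.57 in HEL with PMA, against 5.90 untreated. With values under 5 set to 5 its HEL change was -0.90, under the 2-fold limit.

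Of 13 feedback genes of the MAP kinases 5 were higher in both lines (4.06% of all genes), 3 were counted (16.7% of all genes) and 5 were neither. DUSP10, a phosphatase of p38 and JNK, was higher in K562 only, at 10.14 with PMA, against 8.05 and 8.21 untreated, and at 8.61 in HEL with PMA, against 8.52 untreated. The ETS factors that report ERK activity parted, since ETV5 was higher in HEL only (-0.32 in K562 and 1.78 in HEL) and ETV4 was lower in K562 (-1.02 in K562 and 0.38 in HEL), an interaction that did not hold at 2-fold against each untreated array.

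Of 16 NF-kB genes 8 were higher in both lines, against 4.06% of all genes, 3 in K562 only, against 6.22%, and 5 were neither, with list medians of 3.21 in K562 (9.25-fold) and 0.93 in HEL (1.91-fold). The 3 were ICAM1, the adhesion molecule, NFKB1, the p105 precursor of the p50 subunit, and TNIP1, an inhibitor of the pathway. ICAM1 was at 11.31 in K562 with PMA, against 7.37 and 6.80 untreated, and at 7.24 in HEL with PMA, against 6.77 untreated. NFKB1 was at 10.16 in K562 with PMA, against 7.90 and 8.14 untreated, and at 8.38 in HEL with PMA, against 8.31 untreated. The inhibitor NFKBIA, in contrast, was higher in both (3.73 in K562 and 1.61 in HEL).

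Of 42 listed chemokine and cytokine genes 13 were measured. Of these 7 were higher in both lines, against 4.06% of all genes, and 3 were counted, against 16.7%. The filter at 5 favours genes that PMA raised, so the 7 are a description only. CXCL8, interleukin 8, was at 13.50 in K562 with PMA, against 7.73 and 8.30 untreated, and at 8.28 in HEL with PMA, against 2.86 untreated (changes of 5.49 and 5.42). The untreated HEL value lies under 5, and the interactions of its 2 probe sets were 0.07 and 2.90. IL23A, the p19 subunit of interleukin 23, was at 11.13 in K562 with PMA, against 6.11 and 7.08 untreated, and at 5.48 in both HEL arrays. VEGFA, the angiogenic growth factor, was the reverse case, with 12.70 in K562 with PMA, against 12.63 and 13.21 untreated, and 12.47 in HEL with PMA, against 10.57 untreated, so that only PMA-treated HEL reached the K562 level.

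AP-1 binds the phorbol ester response element, and the promoters of the 2 secreted factors above are shown because both hold its letters, TGANTCA, in capitals in the 150 bases before the start (RefSeq, GRCh38.p14, 5′ to 3′). IL23A, higher in K562 only, is at chr12:56338734-56338883 on the plus strand, and CXCL8, higher in both lines, at chr4:73740419-73740568 on the plus strand.
IL23A: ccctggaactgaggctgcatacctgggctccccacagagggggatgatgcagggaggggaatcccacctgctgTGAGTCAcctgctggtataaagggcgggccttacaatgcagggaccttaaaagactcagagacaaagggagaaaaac
CXCL8: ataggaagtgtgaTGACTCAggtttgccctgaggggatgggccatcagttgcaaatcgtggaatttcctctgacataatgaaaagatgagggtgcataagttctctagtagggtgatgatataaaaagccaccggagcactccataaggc

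Over the windows of 250 bases before to 50 after the start, the AP-1 letters were in 16 of 465 promoters of genes higher in K562 only (3.44%), in 1 of 61 of genes higher in HEL only (1.64%), in 21 of 286 of genes higher in both lines (7.34%) and in 285 of 7449 of all genes kept (3.83%). They were also in 15 of 609 of genes lower in K562 only (2.46%) and in 3 of 48 of genes lower in HEL only (6.25%). Genes higher in K562 and lower in HEL had them in 2 of 25 (8.0%), and the reverse class in 0 of 14. Over all 27305 promoters of the table the share was 7.76%.

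Of 33 listed megakaryocyte and platelet genes 20 were measured, and all 20 had a positive change in K562, of 0.89 or more. A gene under 5 in untreated K562 could enter only if PMA raised it to 5. The filter thus favours a positive sign, and the shared sign is a description only. Of the 20 genes 9 were higher in both lines, against 4.06% of all genes, and 4 in K562 only, against 6.22%. The medians were 3.07 in K562 (8.4-fold) and 1.01 in HEL (2.01-fold). The integrin subunit ITGA2B, which marks the lineage, was at 11.26 in K562 with PMA, against 7.48 and 7.82 untreated, and at 13.29 in HEL with PMA, against 13.01 untreated. TUBB1, the platelet beta tubulin, was at 9.92 in K562 with PMA, against 6.67 and 6.02 untreated, and at 9.97 in HEL with PMA, against 9.77 untreated. TLN1, the integrin activator talin 1, was at 10.65 in K562 with PMA, against 9.04 and 7.14 untreated, and at 10.19 in HEL with PMA, against 10.21 untreated. For all 3 genes HEL held from the start a level that K562 reached or approached only with PMA. F2R, the thrombin receptor PAR1, was also counted (1.47 in K562 and 0.09 in HEL), but its 2 probe sets disagreed, with interactions of 1.39 and -0.7. ITGB3, the partner of ITGA2B, was at 12.47 in K562 with PMA, against 2.93 and 2.37 untreated, and at 10.38 in HEL with PMA, against 9.51 untreated. With values under 5 set to 5 its K562 change was 7.47, and it was not counted because HEL (0.87) exceeded 1.5-fold.

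Of 26 measured genes of globin, heme and the erythroid surface 9 were lower in both lines, against 2.61% of all genes, 3 were counted and 14 were neither. HBD, delta globin, was among the 2 higher in K562 only, with 13.67 with PMA, against 10.19 and 8.01 untreated, and 8.62 in HEL with PMA, against 8.06 untreated. The untreated pair differed by more than 2-fold there, and the limma unadjusted p of its interaction was 0.142. ANK1, the ankyrin of the red cell membrane skeleton, was lower in HEL only, at 9.83 in K562 with PMA, against 9.83 and 9.18 untreated, and at 9.17 in HEL with PMA, against 11.07 untreated. Of 22 transcription factors of the erythroid and megakaryocytic lineages 3 were counted, near the 16.7% of all genes: ETS1, ETS2 and LMO2, all higher in K562 only by 1.03 to 1.15. For LMO2 the interactions of its 2 probe sets ran from -1.1 to 1.2.

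Of 12 measured genes of class I antigen presentation 5 were higher in K562 only, against 6.22% of all genes, with list medians of 2.04 in K562 (4.11-fold) and 0.16 in HEL (1.12-fold). HLA-B was at 10.97 in K562 with PMA, against 8.43 and 8.49 untreated, and at 13.53 in HEL with PMA, against 13.42 untreated. TAPBP, tapasin, which loads peptide onto class I molecules, was at 11.38 in K562 with PMA, against 8.98 and 9.02 untreated, and at 9.07 in HEL with PMA, against 8.98 untreated. PSMB9, an immunoproteasome subunit, went opposite ways, at 5.04 in K562 with PMA, against 3.03 and 3.58 untreated, and at 9.35 in HEL with PMA, against 10.39 untreated. Its untreated K562 values lie under 5, and with such values set to 5 the K562 change was 0.04 and the opposite call was lost. B2M, the invariant light chain, was at 13.79 or more in all 5 arrays. HLA genes are near copies of each other and probes may not keep them apart. Of 15 interferon-stimulated genes 4 were higher in K562 only, against 6.22% of all genes, among them IRF1 (2.61 in K562 and 0.40 in HEL), and RSAD2, viperin, was lower in HEL only (-0.25 in K562 and -2.29 in HEL).

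Signalling of the TGF-beta family was counted in 5 of 18 genes, against 16.7% of all genes, and all 5 were higher in K562 only, against 6.22% of all. BAMBI, a decoy receptor, was at 12.61 in K562 with PMA, against 9.53 and 9.20 untreated, and at 8.80 in HEL with PMA, against 9.12 untreated. BMPR2, a type II receptor for bone morphogenetic proteins, was at 8.93 in K562 with PMA, against 5.48 and 6.06 untreated, and at 7.96 in HEL with PMA, against 8.29 untreated. SMAD3, a signal carrier of the family, was at 9.93 in K562 with PMA, against 6.50 and 6.80 untreated, and at 5.27 in HEL with PMA, against 5.16 untreated. K562 with PMA lay apart from its untreated arrays in all 3 genes, and the HEL arrays differed by less than 1.5-fold.

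The genes of HEL only were fewer and their changes smaller. LOXL3, a lysyl oxidase that cross-links collagen, was at 4.46 in K562 with PMA, against 4.35 and 5.16 untreated, and at 10.26 in HEL with PMA, against 7.21 untreated. SDF2L1, a cofactor of chaperones in the endoplasmic reticulum, was at 9.95 in K562 with PMA, against 10.30 and 10.61 untreated, and at 7.62 in HEL with PMA, against 5.13 untreated. The linker histone H1-2 was at 12.45 in K562 with PMA, against 13.04 and 12.62 untreated, and at 11.31 in HEL with PMA, against 9.04 untreated. For SDF2L1 and H1-2 all K562 arrays lay above both HEL arrays, and HEL with PMA lay nearer to them than untreated HEL. PRG2, eosinophil major basic protein, was at 7.48 in K562 with PMA, against 7.69 and 8.06 untreated, and high in HEL, at 15.38 with PMA, against 13.39 untreated. RNF141, FERRY3, MRC2 and KCNMB3 completed the 8, with interactions of -2.72 to -2.14. Against untreated 1 alone those of MRC2 and KCNMB3 were -1.40 and -1.13. The 2 probe sets of RNF141 gave -2.72 and -0.79.

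Among genes lower in HEL only, SLC30A1, the zinc exporter of the plasma membrane, had the largest interaction named, 2.55, and did not pass in limma. It was at 10.80 in K562 with PMA, against 10.77 in both untreated arrays, and at 5.99 in HEL with PMA, against 8.52 untreated. SOS1, the exchange factor that loads RAS with GTP, was at 9.51 in K562 with PMA, against 8.78 and 9.61 untreated, and at 8.17 in HEL with PMA, against 10.12 untreated. Its 4 probe sets did not agree, with interactions from -0.1 to 2.6. CCDC69, OSBP2, KIAA0040 and PAQR8 had interactions of 1.91 to 2.18.

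Genes that went opposite ways were the fewest. CFAP210, a protein of cilia and flagella, had the largest interaction, 9.79, and did not pass in limma. It was at 9.66 in K562 with PMA, against 4.95 and 4.94 untreated, and at 2.45 in HEL with PMA, against 7.53 untreated, so the line that held it with PMA was K562 and the line that held it untreated was HEL. With values under 5 set to 5 its interaction was 7.19. ABAT, which breaks down the transmitter GABA, was at 8.15 in K562 with PMA, against 3.03 and 3.36 untreated, and at 5.68 in HEL with PMA, against 7.06 untreated. APLNR, the apelin receptor, was at 7.67 in K562 with PMA, against 6.25 and 6.59 untreated, and at 4.85 in HEL with PMA, against 8.65 untreated. TIAM1, an exchange factor for RAC1, was at 5.45 in K562 with PMA and 2.25 in both untreated arrays, and at 9.19 in HEL with PMA, against 10.43 untreated. With values under 5 set to 5 the K562 change of TIAM1 was 0.45, so that it no longer counted as higher in K562. Of the 27 genes higher in K562 and lower in HEL, 18 (66.7%) began at least 2-fold lower in K562 than in HEL, against 13.3% of all genes. The untreated arrays enter both this share and the rule of the class, so the share is a description only. A value under 5 in some array was found in 17 of the 27. IGFBP5, a binder of insulin-like growth factors, rests on the choice of untreated array, with 8.99 in K562 with PMA, against 3.50 and 8.42 untreated, and an interaction of 1.98 against untreated 2 alone.

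In the other direction HES1, a repressor below Notch, was at 6.09 in K562 with PMA, against 9.52 and 9.51 untreated, and at 10.43 in HEL with PMA, against 8.85 untreated. The untreated K562 arrays agreed closely for HES1, and all probe sets gave interactions between -6.2 and -5.0. UNC5B, a netrin receptor, was at 5.29 in K562 with PMA, against 5.86 and 8.0 untreated, and at 10.53 in HEL with PMA, against 7.15 untreated. MAP1B, a microtubule-associated protein of neurons, was at 6.74 in K562 with PMA, against 9.69 and 10.10 untreated, and at 8.01 in HEL with PMA, against 6.58 untreated. PTPRR, a phosphatase that acts on ERK, was at 5.90 in K562 with PMA and 7.89 in both untreated arrays, and at 6.39 in HEL with PMA, against 3.72 untreated. HINT3 had the most negative interaction, -6.01, but its untreated K562 values were 7.83 and 11.07, against 6.21 with PMA, and its 3 probe sets ran from -6.6 to -1.9. With PMA, 1 of these 20 genes lay within 2-fold between the lines, against 10 of 20 untreated. The rule of the class sets this contrast, since a gene within 2-fold untreated could not remain so with PMA.

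Over 2 lists of adhesion and matrix genes 4 were higher in K562 only, against 6.22% of all genes, and 2 lower in HEL only, against 0.722%. Of 15 integrins and adhesion receptors, 3 were higher in K562 only and 1, SELPLG, the ligand of P-selectin, was lower in HEL only, though not by 2-fold relative to K562 against each untreated array. ITGAV, the alpha V subunit that pairs with ITGB3, was at 12.43 in K562 with PMA, against 8.93 and 9.69 untreated, and at 10.25 in HEL with PMA, against 9.80 untreated. The others were ICAM1, given above, and CD58, the ligand of CD2 (1.36 in K562 and 0.19 in HEL). Of 9 matrix proteases and plasminogen genes 2 were counted, CTSB, the lysosomal protease cathepsin B, higher in K562 only (2.05 and -0.29), and ADAM9, a membrane protease, lower in HEL only (0.18 and -1.12).

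In lists of calcium, lipid, survival and cytokine signalling genes, counts are to be read against 16.7% of all genes counted and 6.22% higher in K562 only. ATP2C1, the calcium pump of the Golgi, was at 10.41 in K562 with PMA, against 7.18 and 7.25 untreated, and at 9.22 in HEL with PMA, against 8.89 untreated. It was 1 of 2 counted among 12 calcium genes. PLA2G4A, the cytosolic phospholipase that frees arachidonic acid, went opposite ways, with 9.83 in K562 with PMA, against 8.76 in both untreated arrays, and 8.19 in HEL with PMA, against 9.51 untreated. It and HPGD, which breaks down prostaglandins (1.25 in K562 and -0.40 in HEL), were the 2 counted of 7 eicosanoid genes, but the interaction of HPGD was 0.82 against untreated 2 alone. Of 18 cholesterol synthesis genes 5 were counted, 4 of them lower in K562 only, among these FDPS, farnesyl diphosphate synthase, with 11.31 in K562 with PMA, against 12.41 and 12.66 untreated, and 12.32 in HEL with PMA, against 11.80 untreated. Of 12 BCL2 family genes 3 were higher in K562 only, all promoters of cell death. These were PMAIP1 (1.21 in K562 and -0.31 in HEL), BAK1 (1.37 and 0.24) and BAD (1.48 and 0.42). BAK1 and BAD did not hold at 2-fold against each untreated array. The 3 probe sets of BAD disagreed, with interactions from -0.4 to 1.1. Of 17 outputs of JAK-STAT5 signalling 2 were higher in K562 only, SOCS1, a feedback inhibitor (1.79 and 0.00), and JAK1 (1.63 and 0.56), whose interaction against untreated 2 alone was 0.87.

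Of 16 immediate early genes 4 were counted, and of 3 measured monocyte and granulocyte genes 1, against 16.7% of all genes. This gene, the Fc receptor FCGR2A (1.36 in K562 and 0.18 in HEL), had an interaction of 0.30 against untreated 2 alone. None of the lymphocyte or epithelial list was measured in both lines, and the 1 fibroblast gene measured was not counted. Large shared responses also occurred: CD44, the hyaluronan receptor, was at 14.48 in K562 with PMA, against 4.32 and 4.97 untreated, and at 13.35 in HEL with PMA, against 8.54 untreated, although its 8 probe sets gave interactions from -1.2 to 7.6. ST6GALNAC1, a sialyltransferase, was lower in both lines by nearly equal amounts (-3.34 in K562 and -3.03 in HEL). Sharing a direction, such genes were not counted, whatever their interaction.

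Several probe sets of a gene mostly gave the same sign. The interaction had 1 sign over all probe sets in 209 of 224 such genes higher in K562 only, 288 of 303 lower in K562 only, 29 of 38 higher in HEL only, 24 of 27 lower in HEL only and 8 of 8 in each class of opposite directions.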

How the data were processed

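The authors deposited log2 expression values per probe set for 9 Affymetrix arrays. The processing notes give GCRMA (version not stated), which corrects background from probe sequence, normalizes by quantiles and summarizes probes, so a shift shared by most genes would not be seen and values near the lowest level of 2.25 have no order. Array dates are not given in the sources used here. Of 27306 probe sets, 22858 named 1 gene in the platform annotation (symbols updated through RefSeq), 1164 several and 3284 none. Those of 1 gene with at least 5 in some array of each line were kept (15390) and the one of highest mean stood for its gene (8862 genes). The interaction was fitted in R 4.3.3 with limma 3.58.1 (lmFit, contrasts.fit, eBayes), two-sided, with Benjamini-Hochberg adjustment over all genes, and the script was tested on simulated data. The number of arrays limits the precision.

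Members, the 27 gene lists and the tests were chosen with earlier results of these data known. The genes named were the 8 of largest interaction per class (responding line at 7 or more, same sign and at least 2-fold against each untreated K562 array), up to 4 counted members per list by interaction, 4 genes of largest shared response per direction, and the protein kinase C list. Other list members named as context, and the genes at the edge, were chosen after their values were seen. Promoters came from RefSeq (GRCh38.p14), matched by symbol for 7449 of 8862 genes. Quantile normalization, median centring, other filters, folds, floors, probe summaries and samples were tried as alternatives.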

Additional observations from a re-analysis of the deposited data

Results flagged for a closer look

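Named genes whose K562 array with PMA lay beyond both untreated K562 arrays one way, and whose HEL array with PMA lay the other way, are listed with their interactions (log2, K562 minus HEL). Limma called none of these differences, and HEL has 1 array per condition. Higher in K562 and lower in HEL were CFAP210 (9.79), ABAT (6.34), AUTS2 (6.30), a gene linked to neural development, APLNR (5.05), MARCHF2 (4.96), RFTN1 (4.52), IGFBP5 (4.44), TIAM1 (4.44), KLF6 (3.24), PSMB9 (2.78) and PLA2G4A (2.40), the phospholipase that frees arachidonic acid. Lower in K562 and higher in HEL were HINT3 (-6.01), SEL1L3 (-5.85), UNC5B (-5.03), HES1 (-5.01), PTPRR (-4.67), MAP1B (-4.58), LOC154761 (-4.10), FEV (-3.82), an ETS factor, and CCNE2 (-3.32). With values under 5 set to 5, an alternative added after the data were seen, 17 of the 20 kept the opposite call. The others were TIAM1, with an interaction of 1.69, PSMB9, with 1.08, and KLF6, with 2.82. For IGFBP5 the interaction was 1.98 against untreated 2 alone.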

How the results depend on the processing

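The counts were 1286 genes for K562 only, 143 for HEL only and 47 for opposite directions. With a 4-fold response they were 453, 14 and 4, and with the other line held within 1.2-fold 714, 74 and 47. Without the filter on low values they were 1743, 504 and 58. Leaving out 1 untreated K562 array gave 1237 to 1499 for K562 only, 145 to 155 for HEL only and 42 to 69 for opposite directions. Of the 1476 genes, 96.4% stayed in their class under quantile normalization, 97.6% under median centring, 94.3% with values under 5 set to 5, 87.1% with the mean of all probe sets, and 90.8% and 82.5% without untreated 1 and 2. Interaction calls in limma stayed at 0 under every alternative run, with a smallest adjusted p of 0.055 (all 9 arrays) to 0.35. In the fits of all 9 arrays the hemin arrays of both doses formed 1 group, so the difference between doses entered the error. With 1 untreated K562 array left out, that difference was the only source of error. The fit of the 5 arrays has 1 residual degree of freedom. A count of 0 does not show that the lines respond alike. No named gene counted as a member had an interaction that changed sign, but for F2R it was 0.36 and for LMO2 0.03 with the mean of all probe sets. Among the named genes of shared or no response 9 changed sign under some alternative, among them TF (-0.85 to 2.25), PKLR (-2.15 to 0.21), ECM1 (-0.23 to 1.54), CXCL8 (-0.21 to 2.21) and PRKCI (-0.99 to 0.66). No paired analysis was possible because only untreated K562 has more than 1 array and the groups share fewer than 2 replicate numbers.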

Other observations

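Further gene groups were chosen after values had been seen and support nothing by themselves. Of 21 measured genes of the Fanconi anaemia pathway and homologous recombination, which repair DNA breaks and crosslinks, 15 were lower in K562 only, against 8.29% of all genes, with medians of -2.55 in K562 and -0.18 in HEL. BRIP1, a helicase that works with BRCA1, was at 3.47 in K562 with PMA, against 8.35 and 8.25 untreated, and at 7.88 in HEL with PMA, against 7.86 untreated. BLM, the helicase of Bloom syndrome, was at 5.62 in K562 with PMA, against 9.22 and 9.69 untreated, and at 8.76 in HEL with PMA, against 9.12 untreated. Of 13 clustered histone genes 4 were higher in HEL only (H1-2, H2BC12, H2BC5 and H2BC6), against 0.891% of all genes, with list medians of -0.29 in K562 and 0.99 in HEL. Histone genes are near copies, and probes may not keep them apart. Proteasome genes, 32 measured, had medians of -0.07 in K562 and 0.02 in HEL.

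The other treatments share the untreated arrays with PMA, so their changes are set side by side only. The 31 mitosis genes had a median change of -3.83 with PMA in K562, against 0.03 with 25 µM hemin, -0.28 with 50 µM hemin and 0.12 with 100 nM DAC, and of -0.26 with PMA and 0.02 with 20 nM DAC in HEL. The 20 ATF4 targets had -3.29 with PMA in K562, against -0.03, -2.25 and -1.29 with the same 3 treatments, and -0.60 with PMA and -0.12 with DAC in HEL.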
